A study of Mus musculus with 70 samples.

Results

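Newborn neurons (NBN) sorted from the mouse dorsal cortex at E18.5 were compared with NBN sorted at E16.5, with 3 libraries at each stage out of 70 in the series. All cells came from wild-type C57Bl/6 embryos that carry a Tbr2::GFP reporter, in which the basal progenitor gene Eomes (Tbr2) drives a green fluorescent protein, and all libraries are labelled female. Basal progenitors (BP) of the same line at the same 2 stages, 3 libraries each, were set beside them, and the other NBN libraries (4 at E15.5, 2 at E17.5 and 2 at postnatal day 1, called PN) were used for direction only. Both fractions were taken from GFP-positive cells of papain-dissociated tissue, and the labels do not state how the sort told NBN from BP. Expression was measured by RNA sequencing as TPM, a transcript level corrected for length and scaled to a common total, so TPM can be compared between genes, while sequencing depth is unknown. A gene was tested where its mean was at least 1 TPM at either stage, which 13466 of 23078 genes were.

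Cortical projection neurons are produced in sequence. Neurons of the deep layers, which project to thalamus, brainstem and spinal cord, leave the ventricular zones first, and neurons of the upper layers, which mostly connect cortical areas, follow. Fezf2, Sox5, Bcl11b and Tle4 act in deep layer neurons, the Cux genes in upper layer neurons, and Nr4a2 marks the subplate, the earliest cortical neurons. New neurons pass from multipolar to bipolar shape, migrate along radial glia and only later form synapses.

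The libraries carried the transcripts of neurons. Tubb3, a neuronal tubulin, stood at 3393 to 3681 TPM at E18.5 and 3687 to 3766 TPM at E16.5, and Hes5, a Notch target of neural stem cells, at 3.21 to 5.55 TPM at E18.5 and 2.37 to 4.27 TPM at E16.5. Each of the 6 libraries was most similar to another library of its own stage, and no pair held identical values. The spread behind the p-values was estimated within the 23 groups of all 70 libraries, and not from these 6 alone. The labels do not say that replicates came from separate animals, so p-values reflect only how libraries vary within groups, and that variation may be technical. Against the label of female, E18.5 replicates 2 and 3 held Y-linked transcripts at 71.9 and 66.8 TPM with Xist, the transcript of the inactive X, at 7.85 and 1.98 TPM. E18.5 replicate 1 had 5.09 TPM of Y-linked transcripts and 178 TPM of Xist, and the 3 E16.5 libraries had at most 0.426 TPM of Y-linked transcripts and 121 to 166 TPM of Xist. Stage and Y-linked content are thus partly confounded and cannot be fully told apart in these libraries. Of the 8 NBN libraries used for direction, 5 held over 70 TPM of Y-linked transcripts. Among the E16.5 libraries, replicate 1 lay nearest to the E18.5 mean in 164 of the 236 genes that differed, against 33 and 39 genes for replicates 2 and 3.

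Between E18.5 and E16.5, genes of deep layer and subplate neurons were lower in NBN, and the peptide genes Cck, Nts and Grp and the GABA transporter gene Slc6a11 were higher. The genes named as higher had positive differences in BP as well, given below. By limma on log2(TPM + 1), with Benjamini-Hochberg adjustment over all genes tested, 236 genes (1.75%) differed at an adjusted p below 0.05 with a log2 difference of at least 1 in size. Of these 104 were higher at E18.5 (0.772% of the genes tested) and 132 were lower (0.98%). Passing the test below means meeting both thresholds. At an adjusted p below 0.05 with no minimum difference, 1151 genes (8.55%) were higher and 1618 (12%) lower. At an unadjusted p below 0.05, the shares of all genes tested were 13.8% higher and 20.2% lower, against which the counts given for each list are read. The 3 libraries of one stage did not overlap with the 3 of the other in 221 of the 236, where 46.4% of all genes tested had no overlap. The median over all genes was -0.03 on the log2 scale. Without E16.5 replicate 1 the count was 299, with 119 higher and 180 lower. Without E18.5 replicates 2 and 3, the libraries with Y-linked transcripts, it was 262, with 143 higher and 119 lower, of which 180 were among the 236. With Y-linked transcripts as a covariate it was 272, of which 232 were among the 236. In the fit without E18.5 replicates 2 and 3 the lone E18.5 library is assumed to vary like the other groups.

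**Figure D1:**
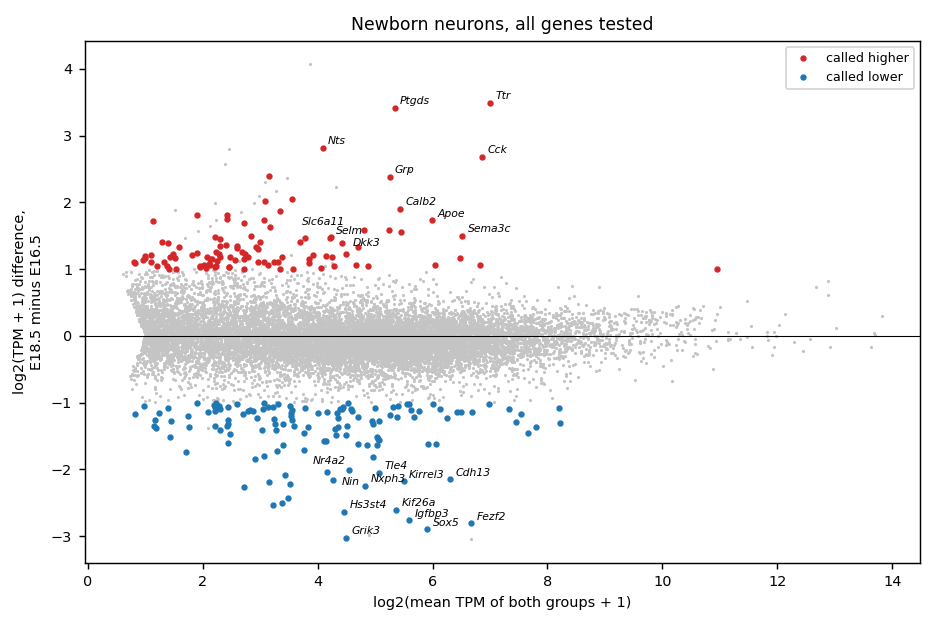
Each point is 1 of 13466 genes, with the log2 of the mean TPM over both stages plus 1 on the x axis and the log2(TPM + 1) difference, E18.5 minus E16.5, in newborn neurons on the y axis. Red marks the 104 genes higher and blue the 132 genes lower at E18.5, the named genes carry their symbol, and grey points beyond 1 in size missed the adjusted p.

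Genes of deep layer identity were lower at E18.5 in 9 of 17 cases and higher in none (by limma, with no member at an unadjusted p below 0.05 upward), with a median difference of -1.09 against -0.03 over all genes tested. Fezf2, the zinc finger factor that specifies subcerebral projection neurons, had 28.2, 26.5 and 18.2 TPM at E18.5, against 124, 213 and 197 TPM at E16.5. All 3 E18.5 libraries lay far under the lowest E16.5 library, and the log2 difference was -2.81 ± 0.20 (SE, adjusted p = 2.98e-15, limma). The gene lies at chr14:12342094-12348189 on the minus strand (GENCODE vM21, GRCm38). Sox5, an SRY-box factor that controls the order in which corticofugal neurons form, had 11.6, 12.8 and 13.7 TPM at E18.5, against 65.1, 131 and 119.7 TPM at E16.5. The stages did not overlap, and Sox5 (chr6:143828425-144781977) fell by 2.90 on the log2 scale (SE 0.25, adjusted p = 1.98e-12, limma). Tle4, a Groucho-type corepressor of corticothalamic neurons, had 11.6, 11.6 and 12.2 TPM at E18.5, against 37.1, 58.0 and 65.1 TPM at E16.5. Its E18.5 libraries were close to each other, and the difference was -2.05 ± 0.15 (SE, adjusted p = 1.36e-14, limma).

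The 6 other deep layer genes fell by less. Bcl11b (Ctip2), a zinc finger factor of corticospinal neurons, had 27.3, 34.0 and 34.2 TPM at E18.5, against 86.4, 109 and 103 TPM at E16.5, a difference of -1.61 ± 0.27 (SE, adjusted p = 2.16e-05, limma). Syt6, Zfpm2, Lmo3, Tshz3 and Rprm fell by 1.63, 1.20, 1.14, 1.10 and 1.09 on the log2 scale. Rprm, a p53 target used as a corticothalamic marker, missed the minimum difference without E16.5 replicate 2 (-0.96) or replicate 3 (-0.99), and Zfpm2 did so without E18.5 replicates 2 and 3 (-0.87). Not every gene of the list moved this way. Tbr1, the T-box factor of layer 6 neurons, had 165.1, 177.3 and 206.7 TPM at E18.5, against 236, 335 and 347 TPM at E16.5, where the stages did not overlap but the difference of -0.73 ± 0.19 was under the minimum (adjusted p = 0.00408, limma). Ntsr1, a neurotensin receptor of layer 6 neurons, had 47.7, 45.8 and 49.4 TPM at E18.5, against 39.1, 39.2 and 47.4 TPM at E16.5, which overlapped (0.19 ± 0.23, adjusted p = 0.613, limma). Etv1 and Crym, both known from layer 5 neurons, had differences of 0.47 and 0.10 that did not pass the test.

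**Figure D2:**
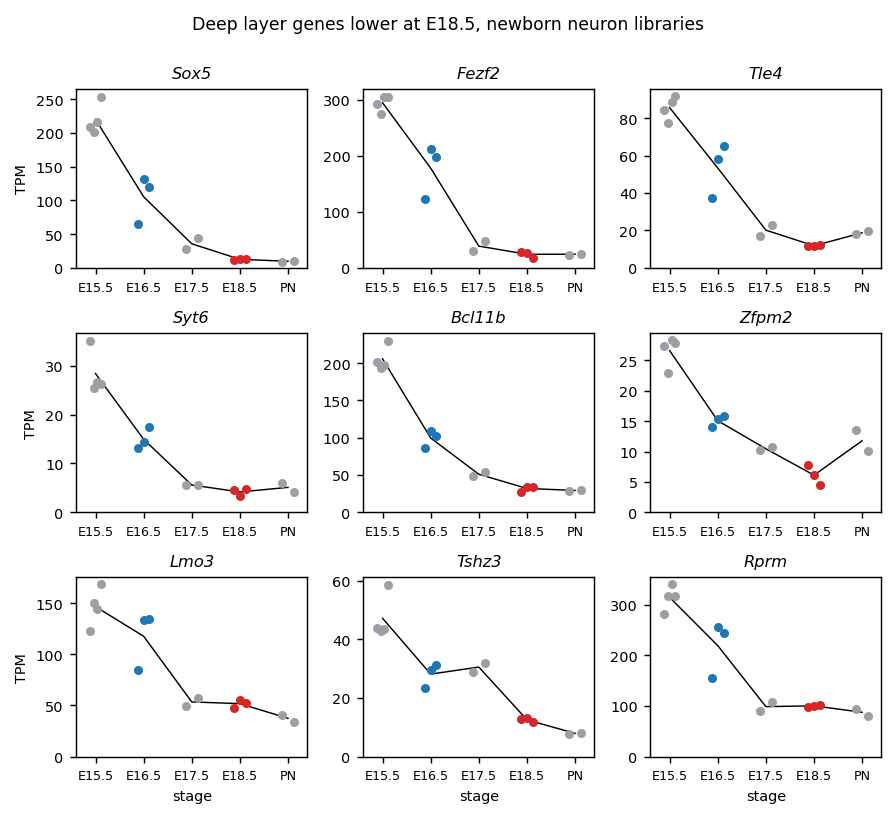
TPM of the 9 deep layer genes that were lower at E18.5, in each newborn neuron library by stage (PN, postnatal day 1); red points are E18.5, blue points E16.5, grey points the other stages, and the line joins the stage means. In Fezf2 the 3 E18.5 libraries sit between 18.2 and 28.2 TPM and the 4 E15.5 libraries between 275 and 306 TPM.

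Genes of the subplate were lower in 5 of the 9 that were tested, out of 11 listed, and higher in none by limma, though 2 of the 9 were higher at an adjusted p below 0.05 under the minimum difference (2 also at an unadjusted p, median difference -1.01). Nr4a2 (Nurr1), an orphan nuclear receptor, had 5.93, 6.59 and 5.34 TPM at E18.5, against 23.1, 24.2 and 36.6 TPM at E16.5, a difference of -2.03 ± 0.21 (SE, adjusted p = 2.55e-10, limma). Nxph4, Lpar1, Pappa2 and Kcnab1 fell by 1.25, 1.21, 1.12 and 1.01 on the log2 scale, Lpar1 and Kcnab1 at mean levels under 5 TPM at both stages. Kcnab1 missed the minimum without E16.5 replicate 3 (-0.85) or E18.5 replicate 3 (-0.91), and Pappa2 missed it without E18.5 replicates 2 and 3 (-0.93). Cplx3 and Moxd1 were under 1 TPM at both stages and were not tested.

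Upper layer genes had differences of both signs. Of 18 tested, 1 was lower and none higher by limma, where 4 were higher and 5 lower at an adjusted p below 0.05 (5 and 6 at an unadjusted p), and the median was 0.07. Cux1 and Cux2, homeobox genes of upper layer neurons, differed by 0.10 and 0.27 and did not pass. The one that fell was Cdh13, which encodes T-cadherin and is also expressed in deep layers. It had 24.4, 28.1 and 30.2 TPM at E18.5, against 92.9, 137 and 154 TPM at E16.5 (-2.15 ± 0.29, adjusted p = 1.51e-07, limma). Lmo4, Nectin3 (listed as Pvrl3) and Ptn were higher by 0.74, 0.78 and 0.73, under the minimum of 1.

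Outside these 3 lists, 7 other named genes fell by more than 2 on the log2 scale. Grik3, the kainate receptor subunit GluK3, had 3.99, 3.03 and 4.395 TPM at E18.5, against 25.1, 42.9 and 49.7 TPM at E16.5. No E18.5 library came near an E16.5 library, and the difference of -3.02 ± 0.46 was the lowest among the named genes (adjusted p = 2.67e-06, limma). Igfbp3, a secreted binding protein of insulin-like growth factors, had 10.8, 13.9 and 9.10 TPM at E18.5, against 60.3, 87.7 and 101.9 TPM at E16.5 (-2.76 ± 0.28, adjusted p = 1.95e-10, limma). Hs3st4, a sulfotransferase that modifies heparan sulfate chains, had 4.35, 4.92 and 5.57 TPM at E18.5, against 24.4, 42.9 and 43.9 TPM at E16.5 (-2.64 ± 0.25, adjusted p = 4.03e-11, limma). In these genes E16.5 replicate 1 was the lowest of its stage and still above every E18.5 library. Kif26a, an atypical kinesin, fell by 2.60, Nxph3, a neurexophilin that binds neurexins, by 2.25, Kirrel3, an immunoglobulin adhesion protein, by 2.18, and Nin, the centrosomal protein ninein, by 2.16. In Nin the E18.5 libraries held 5.62 to 6.22 TPM and the E16.5 libraries 20.6 to 36.8 TPM.

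The genes that rose furthest at high levels included neuropeptides. Of 15 genes tested from a list of neuropeptides and calcium-binding proteins (22 listed), 4 were higher and 1 was lower. Cck, which encodes cholecystokinin, a peptide of many cortical projection neurons, had 223.7, 215.5 and 164.5 TPM at E18.5, against 34.4, 26.8 and 29.6 TPM at E16.5. The E18.5 libraries were all several times over the E16.5 libraries, and the difference was 2.69 ± 0.40 (SE, adjusted p = 1.82e-06, limma). Nts, which encodes neurotensin, had 29.7, 32.8 and 17.2 TPM at E18.5, against 14.49, 0.478 and 1.34 TPM at E16.5. Its E16.5 replicate 1 came close to the lowest E18.5 library while replicates 2 and 3 were near 1 TPM, and the difference was 2.82 ± 0.57 (adjusted p = 0.000308, limma). Grp, the gastrin-releasing peptide, had 59.7, 66.4 and 56.0 TPM at E18.5, against 26.5, 4.76 and 9.25 TPM at E16.5 (2.39 ± 0.34, adjusted p = 6.3e-07, limma). E16.5 replicate 1 was again the highest of its stage. Calb2, the calcium buffer calretinin, had 74.7, 73.1 and 54.1 TPM at E18.5, against 23.4, 14.7 and 14.3 TPM at E16.5 (1.91 ± 0.26, adjusted p = 3.18e-07, limma). Calb2 also stands in a list of Cajal-Retzius neuron genes, of which the other 8 tested were not higher, with a list median of -0.19.

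Npy, which encodes neuropeptide Y, went the other way. It had 9.29, 12.8 and 17.1 TPM at E18.5, against 38.4, 45.4 and 59.2 TPM at E16.5, and fell by 1.81 (SE 0.49, adjusted p = 0.00696, limma). Without E18.5 replicates 2 and 3 its difference was -2.22 with an adjusted p of 0.0533 (limma). Sst and Penk, peptides of interneurons and other cells, had differences of 0.51 and 0.38 that did not pass.

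The other named genes that rose included a GABA transporter and a semaphorin. Slc6a11, the GABA transporter GAT3, had 40.7, 38.5 and 42.1 TPM at E18.5, against 18.9, 8.81 and 12.4 TPM at E16.5 (1.59 ± 0.22, adjusted p = 2.38e-07, limma). Sema3c, a secreted semaphorin that guides cortical axons, had 153, 119 and 121 TPM at E18.5, against 82.7, 31.0 and 36.1 TPM at E16.5 (1.503 ± 0.28, adjusted p = 7.53e-05, limma). In both genes the stages did not overlap. In the neural stem cell libraries of the series, mean Slc6a11 was 21.0 TPM at E16.5 and 108.7 TPM at E18.5. Mean Sema3c there was 169.5 TPM at E16.5 and 31.4 TPM at E18.5. Dkk3, a secreted protein of the Dickkopf family, rose by 1.58, and Selm, selenoprotein M, by 1.47.

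**Figure D3:**
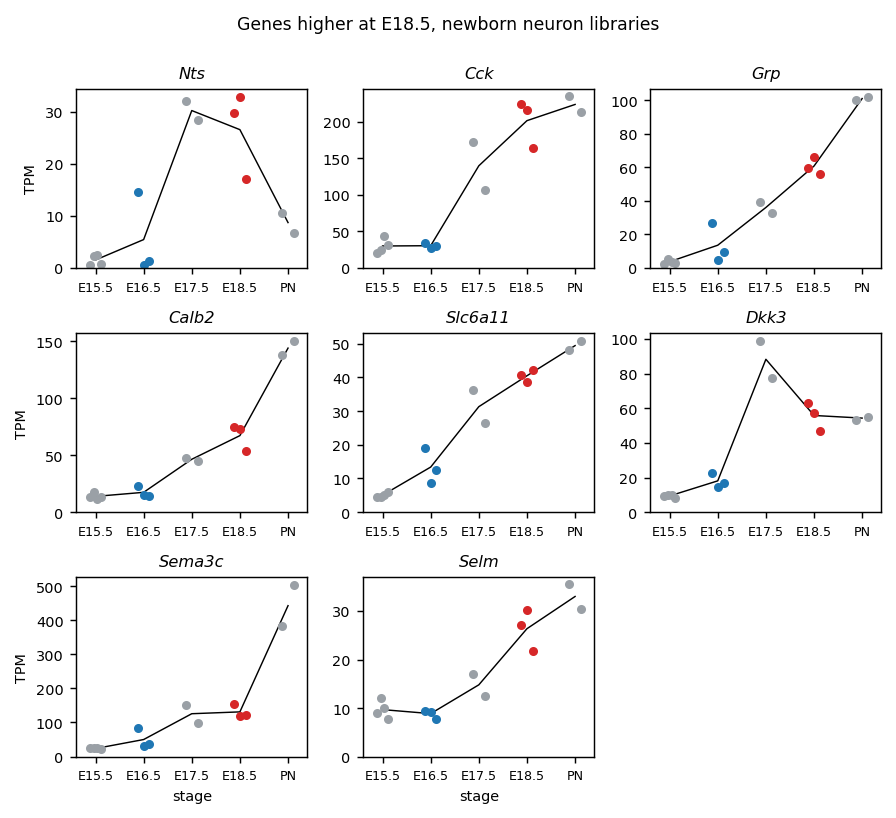
TPM of 8 named genes that were higher at E18.5, in each newborn neuron library by stage (PN, postnatal day 1); red points are E18.5, blue points E16.5, grey points the other stages, and the line joins the stage means. Cck sits between 164.5 and 223.7 TPM at E18.5 and between 26.8 and 34.4 TPM at E16.5.

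The promoters of a pair of genes that fell (Fezf2, Sox5) and a pair that rose (Cck, Nts) are printed because each pair moved together. They span 250 bases before to 50 after the gene start of RefSeq (GRCm38.p6). Capitals mark CAGATG and CAGCTG, the E-box letters of neuronal basic helix-loop-helix factors; TGACGTCA (the CRE), TATAAA (the TATA box) and TATTTTTA (the core of one Mef2 site) were searched too, all on both strands, and CAGCTG and TGACGTCA read the same on both.
Fezf2 (chr14:12345816-12346115, minus strand): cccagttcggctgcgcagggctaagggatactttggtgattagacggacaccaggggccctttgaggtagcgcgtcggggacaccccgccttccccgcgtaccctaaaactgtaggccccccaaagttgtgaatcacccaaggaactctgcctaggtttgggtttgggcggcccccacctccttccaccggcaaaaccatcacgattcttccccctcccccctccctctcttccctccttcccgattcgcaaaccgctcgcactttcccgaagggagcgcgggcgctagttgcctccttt
Sox5 (chr6:143947057-143947356, minus strand): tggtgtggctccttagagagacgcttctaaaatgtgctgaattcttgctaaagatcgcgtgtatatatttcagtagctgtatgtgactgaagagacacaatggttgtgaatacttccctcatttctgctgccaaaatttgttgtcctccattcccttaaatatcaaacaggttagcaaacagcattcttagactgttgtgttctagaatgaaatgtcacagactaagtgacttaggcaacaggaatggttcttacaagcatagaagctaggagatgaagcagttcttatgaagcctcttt
Cck (chr9:121495645-121495944, minus strand): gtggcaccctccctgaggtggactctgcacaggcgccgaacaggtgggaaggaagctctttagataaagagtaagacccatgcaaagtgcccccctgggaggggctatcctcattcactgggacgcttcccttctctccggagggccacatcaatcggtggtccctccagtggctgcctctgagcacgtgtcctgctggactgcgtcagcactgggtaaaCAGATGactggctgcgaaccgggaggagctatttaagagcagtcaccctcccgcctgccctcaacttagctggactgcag
Nts (chr10:102490369-102490668, minus strand): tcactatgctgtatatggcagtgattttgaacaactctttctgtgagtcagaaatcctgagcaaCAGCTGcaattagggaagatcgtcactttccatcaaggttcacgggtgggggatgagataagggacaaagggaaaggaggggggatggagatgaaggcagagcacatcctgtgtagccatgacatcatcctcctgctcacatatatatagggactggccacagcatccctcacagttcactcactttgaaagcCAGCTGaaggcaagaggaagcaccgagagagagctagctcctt
Cck held 1 CAGATG, starting 30 bases before the gene start, and Nts held 2 CAGCTG, starting 186 bases before it and at base 8 after it. None of these letters was found in the windows of Fezf2 and Sox5. The RefSeq starts used lie inside the GENCODE genes, 2324 bases from the outer end for Fezf2, 834871 bases for Sox5 and 68 bases for Nts, so the sequence before the outermost starts of Fezf2 and Sox5 was not searched. For Cck the starts coincide. Over all 32851 promoters of this length, 17.2% held CAGATG, 16.3% CAGCTG, 13.6% TATAAA, 2.72% TATTTTTA and 1.79% TGACGTCA. Of the 24 named genes 15 had a promoter in the table, and among those 4 held CAGATG, 3 CAGCTG and 2 TATAAA. A gene with several listed starts, such as Apoe with 3, was counted if any of its promoters held the letters. The shares over all promoters count each promoter by itself, so the counts and shares are in unlike units. A match describes letters and not a bound site.

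Genes for synapses and excitability that passed the test went in both directions. Of 41 synaptic vesicle and release genes 2 were higher and 2 lower, with a median of -0.08. At an unadjusted p below 0.05 by limma, 5 were higher and 7 lower. Doc2a, a calcium sensor of release, rose by 1.31. Slc17a7, the vesicular glutamate transporter VGLUT1, had 15.36, 13.63 and 14.51 TPM at E18.5, against 27.2, 36.9 and 42.0 TPM at E16.5 (-1.21 ± 0.21, adjusted p = 4.42e-05, limma), and Sv2b, a vesicle glycoprotein, fell by 1.10. Sv2b missed the minimum without E16.5 replicate 3 (-0.93). Doc2a had adjusted p of 0.0724, 0.113 and 0.0586 (limma) without E16.5 replicate 2, E16.5 replicate 3 or E18.5 replicate 2.

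Of 24 glutamate receptor genes 2 were higher and 2 lower (6 and 5 at an unadjusted p below 0.05, limma). Grik4, the kainate receptor subunit GluK4, had 6.00, 5.98 and 4.92 TPM at E18.5, against 2.20, 1.48 and 1.70 TPM at E16.5 (1.25 ± 0.15, adjusted p = 8.76e-09, limma), the opposite direction to Grik3. Cacng3, a protein that traffics AMPA receptors, rose by 1.35, and Cnih3, another, fell by 1.05, but missed the minimum without E18.5 replicate 3 (-0.95). Without E18.5 replicates 2 and 3 Cacng3 had a difference of 1.06 (adjusted p = 0.194, limma). Gabra5, a subunit of extrasynaptic GABA receptors, was higher by 1.15 ± 0.19 (adjusted p = 1.86e-05, limma). It was the only one to pass among 17 GABA receptor and chloride transporter genes (4 higher and 2 lower at an unadjusted p below 0.05, limma). Of 50 voltage-gated channel genes 1 was higher and 2 were lower (5 and 10 at an unadjusted p below 0.05, limma). Hcn2, a pacemaker channel, rose by 1.01, and Cacna1e, an R-type calcium channel, fell by 1.16, beside Kcnab1 above. Hcn2 missed the minimum without E16.5 replicate 2 (0.83) or E18.5 replicate 3 (0.88), and Cacna1e had an adjusted p of 0.21 (limma) without E18.5 replicates 2 and 3 (-0.98).

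Among 37 synaptic adhesion genes 2 were lower and none higher by limma, where 1 was higher and 14 were lower at an adjusted p below 0.05 (2 and 19 at an unadjusted p, median -0.33). Both encode leucine-rich repeat proteins of the postsynaptic membrane. Lrrtm3 had 2.2999, 1.27 and 2.03 TPM at E18.5, against 6.88, 22.8 and 20.9 TPM at E16.5 (-2.501 ± 0.28, adjusted p = 1.86e-09, limma), and Lrrtm4 fell by 1.24. None of 29 postsynaptic scaffold and calcium kinase genes reached both thresholds in limma, with 1 higher and 4 lower at an adjusted p below 0.05 (2 and 9 at an unadjusted p). Among 44 axon guidance genes Sema3c was higher and Slit1 and Sema6a were lower, with a median of -0.31. Slit1, a secreted repellent, had 13.49, 13.52 and 17.60 TPM at E18.5, against 38.8, 49.2 and 56.7 TPM at E16.5 (-1.63 ± 0.25, adjusted p = 4.37e-06, limma). Sema6a fell by 1.06, and by less than the minimum without E16.5 replicate 3 (-0.98). None of 19 radial migration genes reached both thresholds in limma, with none higher and 1 lower at an adjusted p below 0.05 (2 and 4 at an unadjusted p).

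**Figure D4:**
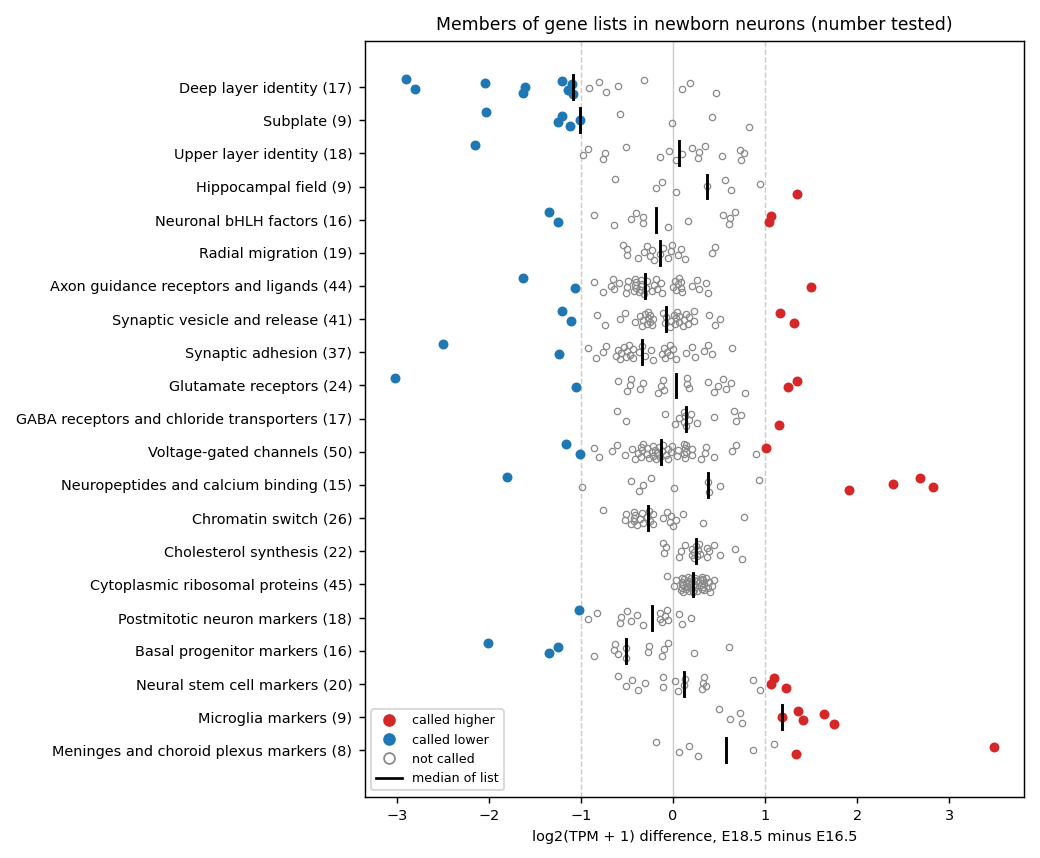
Each point is a tested gene of the list named at the left, with the number tested in brackets, placed by its log2(TPM + 1) difference, E18.5 minus E16.5, in newborn neurons. Red and blue points passed the test upward and downward, open points did not, and the black bar is the median of the list, -1.09 for deep layer identity and 0.07 for upper layer identity.

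Genes with other roles in growing neurons also changed. Ngfr, the low-affinity neurotrophin receptor p75, had 1.22, 1.15 and 1.18 TPM at E18.5, against 5.61, 11.4 and 12.9 TPM at E16.5 (-2.26 ± 0.31, adjusted p = 2.62e-07, limma), and was the only one of 7 neurotrophin genes to pass. Igf2bp2, an RNA-binding protein of fetal growth, had 7.203, 8.21 and 7.94 TPM at E18.5, against 18.485, 29.8 and 28.8 TPM at E16.5 (-1.58 ± 0.18, adjusted p = 2.09e-09, limma). Igf2bp2 was the only one of 9 heterochronic genes to pass. Bcl2, which blocks apoptosis, fell by 1.35 and was the only one of 17 apoptosis regulators to pass. Kif5c, a motor of axonal transport, had 132, 122 and 114 TPM at E18.5, against 344, 286 and 330.1 TPM at E16.5 (-1.37 ± 0.17, adjusted p = 3.65e-08, limma). The neurofilament gene Nefm fell by 1.02, and by less than the minimum without E18.5 replicate 1 (-0.98) or replicate 3 (-0.93). These were the 2 of 32 cytoskeleton and transport genes that passed. At an adjusted p below 0.05 by limma with no minimum difference, 2 neurotrophin, 4 heterochronic, 5 apoptosis and 7 cytoskeleton genes were lower. At that threshold 1 apoptosis gene was higher, and none of the other lists. Of 15 immediate early genes, which respond to activity and to handling, Egr1 was higher by 1.41 and Fosl2 and Ier5 were lower by 1.49 and 1.14. Egr1 ranged from 11.52 to 21.9 TPM at E18.5 and from 1.598 to 10.1 TPM at E16.5, and without E16.5 replicate 1 its difference was 0.74 (adjusted p = 0.273, limma). Without E18.5 replicate 1 or 3 the adjusted p of Egr1 was 0.0591 or 0.0946 (limma). Of 20 nuclear receptor and retinoid genes, Dhrs3, a retinaldehyde reductase, and Rxrg, a retinoid X receptor, were higher by 1.33 and 1.05. Rxrg had an adjusted p of 0.065 (limma) without E16.5 replicate 3 (0.86), and without E18.5 replicates 2 and 3 neither passed (adjusted p = 0.0995 for Dhrs3 and 0.197 for Rxrg, limma).

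Some genes of basal progenitors were lower and some genes of neural stem cells higher. Of 16 basal progenitor genes 3 were lower and none higher by limma, where 1 was higher and 9 were lower at an adjusted p below 0.05 (2 and 9 at an unadjusted p, median -0.51). Eomes, the gene whose promoter drives the reporter used for sorting, had 6.87, 7.11 and 10.5 TPM at E18.5, against 25.6, 47.5 and 36.2 TPM at E16.5 (-2.01 ± 0.24, adjusted p = 1.42e-08, limma). Nhlh1 and Neurog1, helix-loop-helix factors of the step from progenitor to neuron, fell by 1.25 and 1.35, Neurog1 at levels of at most 3.503 TPM. Without E18.5 replicates 2 and 3 Nhlh1 fell by less than the minimum (-0.95). Of 28 cell cycle genes none reached both thresholds in limma, with 1 higher and none lower at an adjusted p below 0.05 (4 and none at an unadjusted p), and a sum of 354 to 410 TPM at E18.5 and 311 to 375 TPM at E16.5. Of 20 neural stem cell genes 3 were higher and none lower by limma, with a list median of 0.12. Without the minimum difference, 5 were higher and none lower at an adjusted p below 0.05 (5 and 4 at an unadjusted p, limma). The 3 that passed were the radial glia gene Fabp7 (1.06), the matrix protein gene Tnc (1.10) and the phagocytosis bridging protein gene Mfge8 (1.23). Fabp7 had 134, 134 and 189 TPM at E18.5, against 56.3, 92.6 and 69.8 TPM at E16.5. Without E16.5 replicate 1 these 3 differences were 0.89, 0.89 and 1.00 (0.998 before rounding for Mfge8) and none reached the minimum, and without E18.5 replicate 3 Fabp7 (0.90) and Tnc (0.86) also missed it. A change in the share of sorted cells and a change in RNA per cell cannot be told apart in bulk libraries.

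Some markers of other cell types were higher at E18.5 and lay unevenly over the libraries. Of the 104 genes that rose, 13 stand in 1 of 9 lists for astroglia, oligodendrocyte precursors, microglia, interneurons, Cajal-Retzius, vessel, meningeal, ependymal and red blood cells, Calb2 included, and of the 132 that fell none does. The progenitor lists above are not in that count. Of the 13466 genes tested, the 9 lists held 13 astroglia, 4 oligodendrocyte precursor, 9 microglia, 13 interneuron and 9 Cajal-Retzius genes. They also held 11 vessel, 8 meningeal, 2 ependymal and 5 red blood cell genes. Microglia genes were higher in 5 of 9 cases (C1qa, C1qb, C1qc, Tyrobp, Fcer1g), and all 9 had an unadjusted p below 0.05 by limma. Their list summed to 82.4, 71.1 and 29.5 TPM at E18.5, against 6.397, 23.6 and 37.3 TPM at E16.5, so that E18.5 replicate 3 lay under E16.5 replicate 3. Without E16.5 replicate 1 the differences of C1qa, C1qb, C1qc and Tyrobp were 1.08, 0.98, 0.88 and 0.67, and the last 3 of these genes missed a threshold. Fcer1g had 0.70 without E16.5 replicate 1 and also missed the test without E18.5 replicate 1 or 2 (adjusted p = 0.0614 and 0.0707, limma). Meninges and choroid plexus genes summed to 323, 432 and 75.9 TPM at E18.5, against 5.46, 85.4 and 85.8 TPM at E16.5, and Ttr and Folr1 were higher among 8 tested. Ttr, a thyroid hormone carrier made by choroid plexus, had 252, 382 and 54.5 TPM at E18.5, against 1.83, 39.5 and 32.0 TPM at E16.5 (3.49 ± 1.05, adjusted p = 0.0137, limma). Its adjusted p was 0.152 without E16.5 replicate 1 (2.26), 0.055 without E18.5 replicate 1 and 0.087 without E18.5 replicate 2 (limma). Folr1, a folate receptor, had an adjusted p of 0.09 (limma) without E18.5 replicate 2 (0.98). Ptgds, a prostaglandin synthase of meninges and choroid plexus, is in none of the lists and had 114, 75.5 and 28.0 TPM at E18.5, against 1.10, 7.41 and 10.9 TPM at E16.5 (3.42 ± 0.45, adjusted p = 1.01e-07, limma).

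Some glial genes were higher as well. Apoe, a lipoprotein made by astrocytes and microglia, had 122, 98.2 and 65.4 TPM at E18.5, against 13.1, 38.6 and 38.4 TPM at E16.5 (1.73 ± 0.26, adjusted p = 1.48e-06, limma). With Mlc1, a membrane protein of astrocyte endfeet (1.07), it was 1 of 2 higher among 13 astroglia genes, whose sum was 231 to 293 TPM at E18.5 and 152 to 216 TPM at E16.5. Mlc1 missed the minimum without E18.5 replicate 3 (0.96). Olig1 and Olig2, transcription factors of the oligodendrocyte lineage, were higher by 2.40 ± 0.28 and 1.76 ± 0.32, and were 2 of 4 tested from 11 oligodendrocyte precursor genes. Olig1 had 10.5, 12.7 and 18.8 TPM at E18.5, against 2.66, 1.55 and 1.27 TPM at E16.5, with E18.5 replicate 3, the lowest of its stage for microglia genes, the highest here. Dlx1, a homeobox gene of interneurons, was the only one higher among 13 interneuron genes, by 1.498 (adjusted p = 0.0289, limma), and its adjusted p ran from 0.0521 to 0.107 (limma) when each of 5 of the 6 libraries was left out. None of 11 endothelial, 5 erythroid and 2 ependymal genes reached both thresholds in limma, with 1, none and none higher at an adjusted p below 0.05 (5, none and none at an unadjusted p). The part of these cells or their RNA in the genes that rose was not tested. With only E18.5 replicate 1 left at that stage, Ttr, Dlx1, Mlc1, Fabp7, Tnc, Mfge8, Egr1, Doc2a, Nefm, Hcn2, Kcnab1 and Cnih3 also missed the test, with values of 4.02, 1.33, 1.01, 0.90, 0.98, 0.97, 1.48, 1.21, -1.09, 0.91, -0.92 and -0.93 and adjusted p between 0.00436 and 0.319 (limma).

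Large families of housekeeping genes had small differences, mostly of 1 sign. Of 45 cytoplasmic ribosomal protein genes none reached the minimum difference in limma, while 20 were higher at an adjusted p below 0.05 (29 at an unadjusted p) and none lower, and the median was 0.21. At E17.5 this list summed to 37010.2 to 37562.5 TPM, under both E16.5 (43539 to 45585 TPM) and E18.5 (50795 to 52644 TPM). Of 22 cholesterol synthesis genes none reached the minimum difference in limma, while 11 were higher at an adjusted p below 0.05 (12 at an unadjusted p) and none lower (median 0.25). Their sum at E17.5 was 3122 to 3296 TPM, above both E16.5 (2185 to 2434 TPM) and E18.5 (2769 to 2878 TPM). Of 13 mitochondrially encoded genes mt-Nd3 was higher, by 1.00, which fell under the minimum without E16.5 replicate 3 (0.82) or E18.5 replicate 1 (0.95), with 7 at an unadjusted p below 0.05 upward and a list median of 0.44. Of 26 genes of chromatin complexes none reached the minimum difference in limma, while at an adjusted p below 0.05 1 was higher and 10 were lower (1 and 12 at an unadjusted p, median -0.27).

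The 2 E17.5 libraries, which entered neither group, lay between the stages in most of the genes that differed. On the log2(TPM + 1) scale the E17.5 mean was between the means of E16.5 and E18.5 for 188 of the 236 genes (79.7%), against 28.5% of all genes tested. It lay to the E18.5 side of the E16.5 mean for 222 of them (94.1%, against 57.2% of all genes tested), having gone a median of 62.5% of the way. The 236 genes were selected for a wide gap between these same means, while most genes tested had a narrow one. Both shares are thus raised by the selection, and the difference from all genes cannot be weighed. Over all 13466 genes tested, the E17.5 mean stood above both stages in 6263 and below both in 3364, so it stood high in general. Of the 104 genes that rose, 25 stood higher at E17.5 than at E18.5 and 6 stood lower at E17.5 than at E16.5. Dkk3 was one of the 25, at 98.9 and 77.6 TPM at E17.5. Of the 132 that fell, 9 stood lower at E17.5 than at E18.5 and 8 stood higher than at E16.5. Cacna1e and Nefm were among those 8, Nefm at 78.3 and 99.3 TPM at E17.5. The 4 E15.5 and 2 PN libraries share no library with either stage: PN minus E15.5 had the same sign as E18.5 minus E16.5 for 236 of 236 genes, where 71.3% of all genes tested did, with a median of 1.81 for those that rose and -1.97 for those that fell. Here too most genes tested had a narrow gap between E16.5 and E18.5, so the 71.3% is not a like measure for genes selected for a wide one.

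The same interval was then compared between NBN and BP of the same reporter line, by the difference of the 2 differences in 1 fit. That fit took NBN and BP libraries as independent, and the labels do not state whether both fractions came from the same animals. At E15.5, outside this contrast, Xist in replicates 1 to 4 was 218, 8.14, 1.65 and 0.529 TPM in NBN. In BP it was 239, 11.6, 1.81 and 0.504 TPM, so a pairing by animal is possible and was not modelled. The difference of differences passed for 202 of 13965 genes tested (1.45%), 36 with a higher value in NBN (0.258%) and 166 with a lower one (1.19%). Among the 166 lower were genes of deep layer neurons and Hs3st4, which stands in none of the lists. Hs3st4 in NBN is given above; in BP it had 2.65, 2.57 and 2.62 TPM at E18.5, against 1.12, 2.34 and 1.39 TPM at E16.5, and the difference of differences was -3.13 ± 0.36 (SE, adjusted p = 2.89e-08, limma). Tle4 differed by -2.05 in NBN and 0.21 in BP (-2.26 between them, adjusted p = 2.49e-10, limma), and Fezf2 by -2.81 in NBN and -1.004 in BP (-1.80, adjusted p = 2.15e-05, limma). For Bcl11b the values were -1.61 in NBN and -0.98 in BP, and the difference between them did not pass (-0.64, adjusted p = 0.439, limma). Npy had the lowest value of the named genes. In BP it had 7.66, 7.32 and 7.27 TPM at E18.5, against 2.47, 1.26 and 0.755 TPM at E16.5, so that the differences in NBN and BP had opposite signs (-3.62 ± 0.70, adjusted p = 0.000706, limma). Igfbp3, Grik3, Kirrel3 and Nxph3 had differences of differences of -3.25, -3.23, -2.76 and -2.43, with BP means between 1.94 and 11.48 TPM at both stages. At E16.5 the BP means of Hs3st4, Grik3, Igfbp3 and Kirrel3 were 1.62, 1.94, 2.94 and 3.43 TPM. From such levels log2(TPM + 1) could not fall as far in BP as in NBN. Their differences of differences would thus be negative whatever fall BP had.

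The 6 named genes with a higher value in NBN all had a negative difference in BP, of -1.95 to -0.07. Fat1, an atypical cadherin, had 22.4, 18.2 and 19.7 TPM at E18.5 in NBN, against 11.2, 6.15 and 7.47 TPM at E16.5, and in BP 8.44, 7.90 and 8.73 TPM at E18.5, against 14.8, 13.7 and 13.1 TPM at E16.5. The differences had opposite signs and the stages did not overlap in either fraction (1.88 ± 0.30, adjusted p = 4.02e-05, limma). Kif26b, a kinesin related to Kif26a, had 29.6, 24.8 and 29.0 TPM at E18.5 in NBN, against 19.5, 10.7 and 15.7 TPM at E16.5, and in BP 15.1, 11.9 and 16.8 TPM at E18.5, against 36.1, 28.3 and 29.0 TPM at E16.5 (1.903 ± 0.39, adjusted p = 0.00161, limma). Nrarp, a feedback inhibitor of Notch, had a difference of 0.51 in NBN and -1.01 in BP (1.51, adjusted p = 9.95e-05, limma). Cxcl12, the chemokine of the intermediate zone that guides interneurons, had 0.47 in NBN and -0.98 in BP, where its 3 E18.5 libraries held 35.2 to 45.0 TPM and its 3 E16.5 libraries 67.5 to 100.1 TPM (1.45, adjusted p = 0.0222, limma). St18, a zinc finger factor, had -0.41 in NBN and -1.95 in BP (1.54, adjusted p = 0.0074, limma), and Hmgn5, a nucleosome-binding protein, 1.47 in NBN and -0.07 in BP (1.54, adjusted p = 0.0209, limma). Cxcl12 missed the adjusted p when each of 6 of the 12 libraries was left out (0.0565 to 0.104, limma), and Hmgn5 did so without NBN E16.5 replicate 2 (0.0829), NBN E16.5 replicate 3 (0.104) or BP E18.5 replicate 1 (0.0729). For Cck, Nts, Grp and Calb2 the difference between fractions did not pass (adjusted p = 0.172, 0.447, 0.872 and 0.506, limma), and their differences in BP were 1.21, 1.52, 2.17 and 2.45. Nor did it pass for Slc6a11 and Sema3c (adjusted p = 0.947 and 0.741, limma), whose differences in BP were 1.65 and 1.19.

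**Figure D5:**
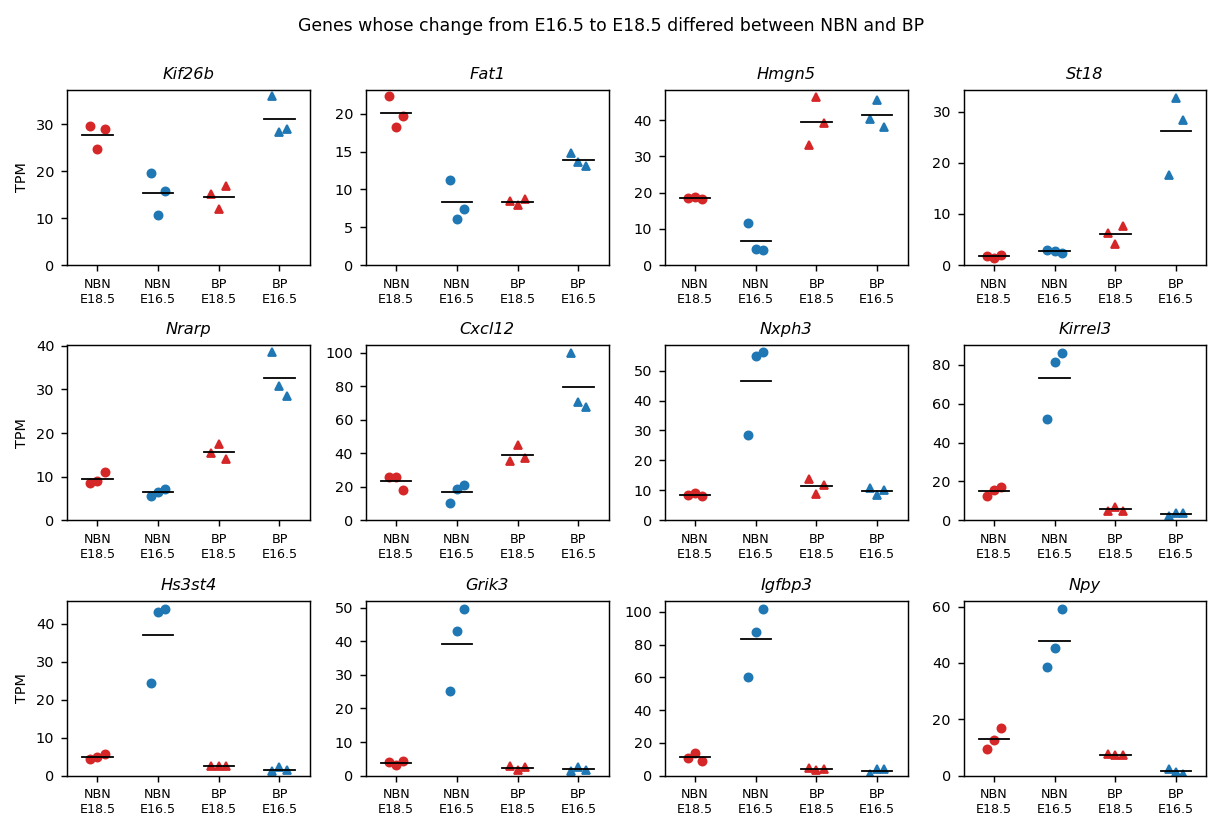
TPM of the 12 named genes in each library of newborn neurons (NBN, circles) and basal progenitors (BP, triangles), with E18.5 in red left of E16.5 in blue and the mean as a bar. The first 6 panels have a positive difference of differences and the last 6 a negative one, where NBN at E16.5 is the highest group in all of the last 6.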

How the data were processed

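RNA of sorted cells was sequenced with a TruSeq kit on a HiSeq instrument in single reads, per the labels' protocols. The authors deposited gene-level TPM for all 70 libraries, and kallisto 0.43.0 and the builds GRCm38.p2 and mm10 are named per the submitters' processing notes. TPM keep no library total, so depth is unknown, no counting interval is given and the number of libraries limits precision. A rise of an abundant transcript lowers the TPM of all others.

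Values were tested as log2(TPM + 1), which understates the change of low genes, with limma 3.58.1 in R 4.3.3. One mean was fitted for each of 23 groups over all 70 libraries (47 residual degrees of freedom, trended variance), so all groups share 1 estimate of the spread. Genes needed a mean of at least 1 TPM in a group compared. A call needed a Benjamini-Hochberg adjusted p below 0.05 and a log2 difference of at least 1 in size. The difference between NBN and BP was a contrast of the same fit. The fit was tested on simulated data.

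Named genes were the 12 largest calls in each direction with a mean of at least 20 TPM at either stage, an unambiguous symbol and no overlap of libraries. For NBN against BP they were the 6 largest in each direction, where overlap was allowed. Genes of 43 lists with known roles or cell types were named besides. The members and lists were chosen with earlier results of these data known. Groups came from the labels. Same-numbered NBN libraries of E18.5 and E16.5 did not deviate together (r = 0.02, 0.11 and -0.02 over genes), so the numbers were not taken as pairs. Alternatives were other pseudocounts, filters, scalings, variance models, samples in the fit, a replicate block, a covariate of Y-linked transcripts, and leaving out each library. Leaving out E18.5 replicates 2 and 3 together was added after the data were seen. Results for a few withheld genes are not reported here, and they are counted in the totals.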

Additional observations from a re-analysis of the deposited data

Results flagged for a closer look

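In 12 named genes the E18.5 minus E16.5 difference in NBN departed from that in BP, by limma with Benjamini-Hochberg adjustment over 13965 genes. The difference of the 2 differences was 1.903 for Kif26b, 1.88 for Fat1, 1.54 for Hmgn5, 1.54 for St18, 1.51 for Nrarp and 1.45 for Cxcl12. It was -2.43 for Nxph3, -2.76 for Kirrel3, -3.13 for Hs3st4, -3.23 for Grik3, -3.25 for Igfbp3 and -3.62 for Npy. For Kirrel3, Hs3st4, Grik3 and Igfbp3 the low level in BP left no room for a like fall, as given above.

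In the E15.5 NBN, which entered neither stage compared, 2 of the 24 named genes had 1 of the 4 libraries apart from the others, replicate 4 for Sema3c and replicate 2 for Cdh13. Sema3c had 21.4 TPM in its lowest library, with the others between 24.0 and 24.5 TPM. Cdh13 had 186.6 TPM in its lowest library, with the others between 193.0 and 194.1 TPM. Chance alone marks about 1 in 20 groups of this size.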

How the results depend on the processing

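Against 236 calls between E18.5 and E16.5, a pseudocount of 0.1 gave 437 (239 higher, 198 lower), 224 of them among the 236, of 5 gave 90 (25 higher, 65 lower), and no minimum difference gave 2769 (1151 higher, 1618 lower). Leaving out 1 library gave 224 to 299 calls, 89 to 142 higher and 114 to 180 lower. For NBN against BP, with 202 calls, a pseudocount of 5 gave 89 (10 higher, 79 lower), no minimum difference 426 (85 higher, 341 lower) and array weights 63 higher. Leaving out 1 library gave 147 to 230 calls, 28 to 47 higher and 108 to 187 lower. The causes were not tested. With the replicate block the counts were 236 and 194, and with the block in the groups compared only 239 and 218. In that last fit C1qa, C1qb, C1qc, Tyrobp and Fcer1g lost their calls (adjusted p = 0.0584, 0.0667, 0.0856, 0.145 and 0.122, limma). No direction was reversed among the 80 genes followed for the stages and the 50 for NBN against BP. Of the 24 named genes 22 kept their call in every alternative, and Ttr was 1 of the 2 that did not. Of the 80, 35 did. Depth is unknown, so differences near 1 TPM cannot be weighed against counting error.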

Other observations

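Further gene groups were described in the same comparison of E18.5 with E16.5 NBN. Of 16 neuronal basic helix-loop-helix genes, Bhlhe40 and Id1 were higher by 1.07 and 1.04, and Neurog1 and Nhlh1 were lower. Id1, an inhibitor of such factors, had a difference of 0.68 (adjusted p = 0.0921, limma) without E16.5 replicate 1, 0.99 without E18.5 replicate 1 and 0.94 without E18.5 replicate 2. Of 9 hippocampal field genes the ETS factor Etv4 was higher, by 1.34. Of 23 splicing and RNA-binding genes Khdrbs2, which controls neurexin splicing, was lower, by 1.11. Of 18 postmitotic neuron genes Nefm was lower and the list summed to 12703 to 13016 TPM at E18.5 and 14159 to 14373 TPM at E16.5. None reached both thresholds in limma among 7 NFI and Mef2 genes, 21 glycolysis genes, 29 respiratory chain genes and 20 stress response genes. At an adjusted p below 0.05, those higher and lower were none and 1, 5 and 2, 10 and none, and 2 and none in that order of lists (none and 2, 5 and 2, 10 and 2, and 2 and 1 at an unadjusted p).

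Families with more than 1 member that changed were picked after their values were seen, and carry no test as families. Of 5 heparan sulfate 3-O-sulfotransferase (Hs3st) genes tested, 3 were lower and none higher. Of 15 regulators of G-protein signalling (Rgs) 3 were lower and none higher, with a median of 0.11 over the family.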
